A study of Mus musculus with 16 samples.

Results

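The genes described here are 35 interferon-stimulated genes, including the inducible subunits of the immunoproteasome. They were taken by symbol from a fixed list, and all 35 had a row in both tissue tables, which share 16882 genes. They were measured by mRNA sequencing in quadriceps and in brown adipose tissue of male C57BL/6 mice aged 10 weeks and housed at room temperature. Mice with both copies of Ppargc1a replaced by an allele named uORF-TAA in the labels (homozygous) were compared with wild-type littermates, with 4 libraries per genotype in each tissue. Ppargc1a encodes the transcriptional coactivator PGC-1alpha, and a uORF (upstream open reading frame) lies in a transcript's leader, before the protein's own start codon. The number of founder lines behind the allele and any restriction of it to a cell type are not in the labels.

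Interferons are secreted proteins that signal through surface receptors, JAK kinases and STAT transcription factors. Type I interferons, made after sensors detect foreign nucleic acid, act through a complex that includes STAT2 and IRF9 and binds a DNA motif called the interferon-stimulated response element (ISRE). Interferon gamma, made by T and NK cells, acts mainly through another DNA motif, the gamma-activated site (GAS). The induced genes include antiviral effectors, GTPases that attack vacuoles holding microbes, and proteasome subunits and transporters that raise the supply of peptides for MHC class I. Many of them are also present at a basal level in tissue that is not infected.

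Only one row of summary values per gene and tissue was analysed, so no level per mouse or per genotype can be shown. Each row gives a mean normalized count over the 8 libraries of the tissue, a log2 fold change with its standard error (SE) and a p-value. All fold changes set uORF-TAA over wild type. This direction is assumed, since the numerator was read from the order of genotypes in each table's name. The brown fat table names wild type first, and its sign was turned. A wrong reading of a table would invert all directions given for its tissue. The fold changes behave as shrunken estimates, so genes of low mean count have fold changes and SEs close to 0. Estimated depth per library had a median of 22.0 M counts and a maximum of 31.8 M in quadriceps, against a median of 11.7 M and a maximum of 17.8 M in brown fat. Tissue markers matched the labels. Skeletal muscle fibre genes summed to 182386 CPM (a gene's mean relative to the sum of all means in its table) in quadriceps and 8679 in brown fat, so RNA of these genes was present in the brown fat libraries too. Brown adipocyte markers summed to 453 CPM in quadriceps and 24400 in brown fat. For Ppargc1a itself the authors' deposited table lists log2 fold changes of 0.06 ± 0.13 (SE) in quadriceps and 0.0016 ± 0.11 (SE) in brown fat, so its mRNA level does not check the genotype labels.

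None of the 35 genes passed the test between genotypes in either tissue. At an adjusted p under 0.05 in the authors' deposited DESeq2 tables, 0 of 35 were called in quadriceps, where 0% of all 17521 genes were called. In brown fat 0 of the 23 members with a deposited adjusted p were called, against 0.0863% of 9272 genes. The other 12 members have no adjusted p in the brown fat table. They are Dhx58, Isg15, Usp18, Ifit1, Ifit2, Ifit3, Oas1a, Oas2, Mx1, Mx2, Rtp4 and Ifi44. The highest mean count of any brown fat gene with a p-value but no adjusted p was 105.5. When all 17973 brown fat p-values were adjusted together, again 0 of 35 passed. At an unadjusted p under 0.05, 1 member was higher in uORF-TAA quadriceps (Igtp), against 0.942% of all genes, and 0 were lower, against 1.06%. In brown fat 3 members were higher (Irf7, Igtp and Bst2), against 0.918% of all genes, and 0 were lower, against 1.15%.

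The members lay on both sides of 0 in quadriceps and mostly above 0 in brown fat. In quadriceps 20 of 35 had a log2 fold change above 0, against 51.7% of all genes, and their median was 0.02 against 0.0024 over all genes. In brown fat 28 of 35 were above 0, against 51.2% of all genes, with a median of 0.10 against 0.0015. The lean in quadriceps turned when low means were left out, with 7 of the 15 members of mean count 50 or more above 0 there. Member values spanned -0.16 to 0.28 in quadriceps and -0.14 to 0.32 in brown fat in the authors' deposited table. Their SEs spanned 0.068 to 0.13 in quadriceps and 0.085 to 0.13 in brown fat. On this shrunken scale the highest upper bound of any member's 95% interval was 0.55 in quadriceps and 0.56 in brown fat, and the lowest lower bound was -0.42 and -0.39. The lean of interferon genes in brown fat was known when the members were chosen, so these counts are not independent of it. The members share regulators and libraries, and their counts carry no test here.

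**Figure D1:**
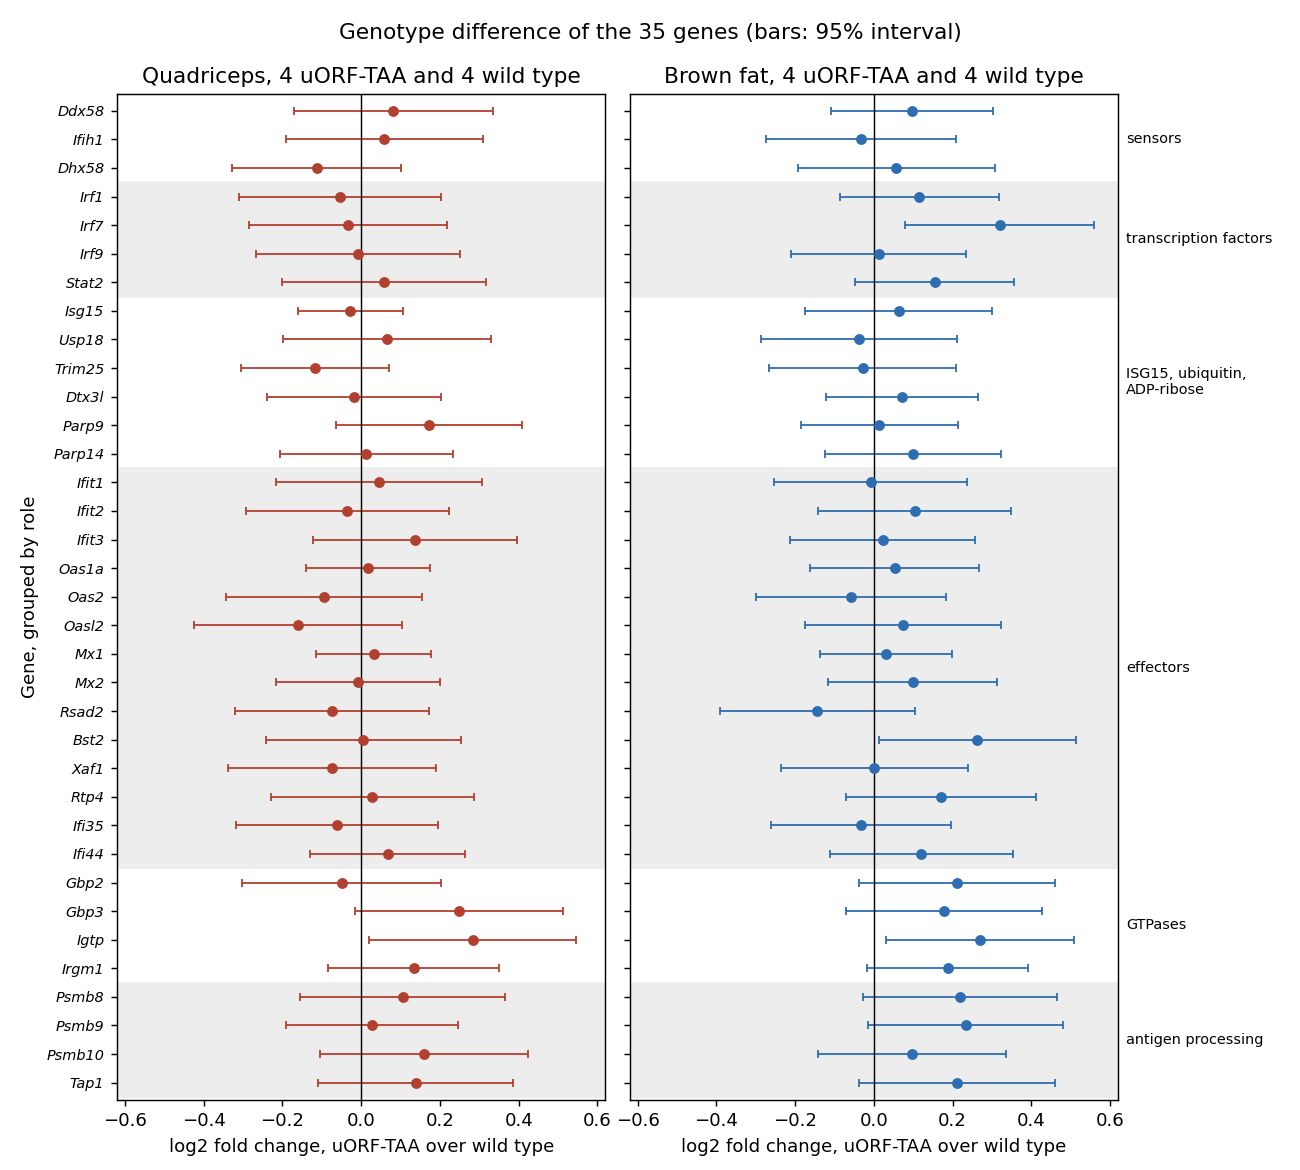
Log2 fold change (uORF-TAA over wild type) of the 35 genes in quadriceps, left, and brown fat, right, with 95% intervals from the deposited standard errors. In quadriceps 20 points and in brown fat 28 points lie above 0, and the intervals of Igtp in both tissues and of Irf7 and Bst2 in brown fat stop short of 0.

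Basal levels are best compared between genes per length, as mean normalized counts per kilobase (kb) of the longest protein-coding transcript. In quadriceps the levels ran from 0.938 per kb for Mx1 to 125 per kb for Irgm1. In brown fat they ran from 1.84 per kb for Mx1 to 278 per kb for Rsad2. Mx1 and Mx2 encode antiviral dynamin-like GTPases, and both genes are known to be disrupted in C57BL/6 mice. Mx2 stood at 2.84 per kb in quadriceps and 5.95 in brown fat. Isg15, which encodes a ubiquitin-like modifier and is among the most inducible of these genes in cultured cells, had only 3.67 per kb in quadriceps and 41.1 in brown fat. The highest levels in brown fat after Rsad2 were those of the transcription factor gene Irf1 (272 per kb), Gbp2 (257 per kb) and Ifi35 (234 per kb). No spread over mice can be given for these levels, so neighbours in the order cannot be told apart.

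The tissues differed in the level of the members, although no test across the separately normalized tables was possible. On the CPM scale, all 35 members were lower in quadriceps than in brown fat, against 76.3% of all genes in both tables. The median log2 ratio of quadriceps to brown fat was -2.50 for the members and -1.19 for all 16882 genes, with member values between -4.20 and -0.70. A few muscle genes take a large share of the quadriceps counts, so the scaling matters. Scaled instead by the median ratio of genes whose mean was 50 or more in each tissue, 33 of 35 members were lower in quadriceps, with a median of -1.59 against -0.28 for all genes, and Ifih1 and Ifit2 were 0.21 and 0.17 higher on the log2 scale. The lowest CPM ratios were those of Isg15 (-4.20), Tap1 (-4.05), Psmb9 (-4.03) and Psmb8 (-3.71). In bulk tissue, fewer cells of a type and less RNA per cell cannot be told apart. Macrophage marker genes summed to 96.3 CPM in quadriceps and 255 in brown fat, and endothelial markers to 241 and 1371 CPM, and their part in the level difference was not tested.

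**Figure D2:**
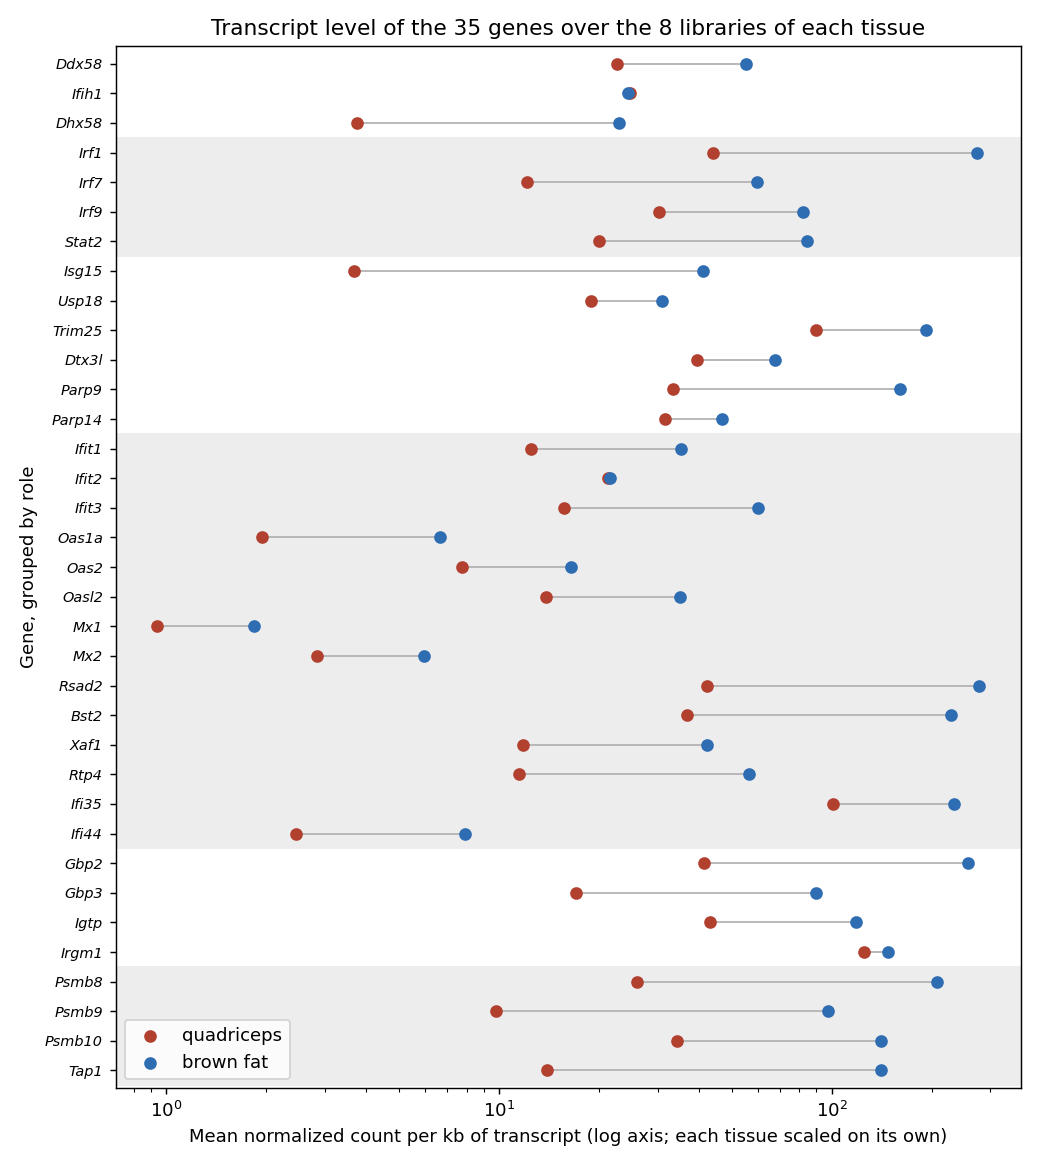
Mean normalized count per kb of transcript (log axis) of the 35 genes over the 8 libraries of quadriceps (red) and of brown fat (blue), grouped by role. Mx1 has the lowest level in both tissues, Irgm1 the highest in quadriceps and Rsad2 the highest in brown fat.

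The promoters were read for the motifs of the pathway. The members were listed as interferon-stimulated genes, so a high share of these motifs among them is not independent of that choice. RefSeq windows of 300 bases (250 before and 50 from the gene start, build GRCm38.p6) were found for 27 members, and Dhx58, Usp18, Parp9, Parp14, Oas2, Mx1, Mx2 and Rtp4 had none in the table used. The ISRE core was written as GAAA, any 2 bases and a further GAAA, on either strand, and the GAS core as TTC, any 3 bases and GAA, which reads the same on both strands. The cores share letters and may overlap. An ISRE core stood in a window of 13 of the 27 members, against 3.99% of the 27025 genes with a window. A GAS core stood in 7 of the 27, against 9.55% of those genes, and 3 members (Bst2, Igtp and Oas1a) held both. A match is a description of letters and not a binding site. The stretches below belong to the 4 genes of the GTPase role and to Isg15 and Ifit3, which carry the same core. The role was picked for its median in quadriceps, the highest of the roles as grouped here. Isg15 and Ifit3 were picked for log2 fold changes closer to 0 in brown fat. In quadriceps Isg15 was at -0.03, but Ifit3 was at 0.14, beside 0.28 for Igtp, 0.25 for Gbp3, 0.13 for Irgm1 and -0.05 for Gbp2. Each stretch is read 5′ to 3′ along the gene, with the ISRE core in capitals on whichever strand it lies. Runs longer than the core are overlapping matches.
Igtp, chr11:58199456-58199555, plus strand: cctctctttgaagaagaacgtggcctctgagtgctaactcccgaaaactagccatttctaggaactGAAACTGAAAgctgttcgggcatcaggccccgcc
Gbp3, chr3:142559944-142560043, plus strand: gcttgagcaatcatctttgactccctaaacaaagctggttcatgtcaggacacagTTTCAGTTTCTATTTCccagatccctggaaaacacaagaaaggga
Gbp2, chr3:142620563-142620662, plus strand: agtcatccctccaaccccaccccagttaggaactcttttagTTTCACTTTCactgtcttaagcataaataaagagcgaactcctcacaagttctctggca
Irgm1, chr11:48871421-48871520, minus strand: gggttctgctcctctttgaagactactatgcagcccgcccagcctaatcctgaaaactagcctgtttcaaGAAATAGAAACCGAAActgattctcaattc
Isg15, chr4:156200819-156200918, minus strand: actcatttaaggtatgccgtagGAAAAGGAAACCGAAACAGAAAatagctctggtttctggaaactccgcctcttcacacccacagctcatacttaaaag
Ifit3, chr19:34583369-34583468, plus strand: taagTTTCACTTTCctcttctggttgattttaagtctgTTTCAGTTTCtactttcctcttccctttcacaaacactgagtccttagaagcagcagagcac
Isg15 held 3 overlapping matches, Gbp3 and Irgm1 held 2 each, and Igtp and Gbp2 held 1 each, all within 100 bases before the start. In Ifit3 the 2 matches lay farther up, from 156 and 122 bases before the start. In quadriceps the 13 members with an ISRE core had a median log2 fold change of 0.06, with 10 above 0, and the 14 without one had a median of -0.03, with 5 above 0. In brown fat the medians were both 0.10, with 10 of 13 above 0 with a core and 12 of 14 without one. Over all genes 51.7% were above 0 in quadriceps and 51.2% in brown fat. The 13 members with a core include the 4 GTPase genes, whose role was picked above for its median in quadriceps. The split in quadriceps therefore reuses those values. These medians are descriptions without a test.

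The cytosolic RNA sensors, which start interferon production, did not pass the test. Ddx58, encoding RIG-I, had a mean normalized count of 87.8 in quadriceps and 215 in brown fat in the authors' deposited table. Its log2 fold changes there were 0.08 ± 0.13 (SE) in quadriceps and 0.10 ± 0.10 (SE) in brown fat. Ifih1, encoding the long double-stranded RNA sensor MDA5, was at 0.06 and -0.03 in the authors' deposited table. Dhx58, encoding LGP2, a relative of these sensors that lacks the signalling domain, was at -0.11 and 0.06 in the authors' deposited table. The smallest unadjusted p of the 3 was 0.302, for Dhx58 in quadriceps, in the authors' deposited DESeq2 table.

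Among the transcription factors, Irf7 had the largest value of all members in brown fat. IRF7 is the factor that amplifies type I interferon production. In quadriceps it was at -0.03 ± 0.13 (SE) and a mean normalized count of 27.2 in the authors' deposited table. In brown fat it was at 0.32 ± 0.12 (SE) and a mean of 134, a 1.25-fold difference, with an unadjusted p of 0.00895 in the authors' deposited DESeq2 table (adjusted p 1.00). Stat2 and Irf9, whose products join in the type I complex, were at 0.06 and -0.0087 in quadriceps and at 0.15 and 0.01 in brown fat in the authors' deposited table. Irf1, a factor acting downstream of interferon gamma, was at -0.05 in quadriceps and 0.12 in brown fat in the authors' deposited table. All 4 factors were thus above 0 in brown fat, and 1 of 4 was above 0 in quadriceps.

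The genes of the ISG15 system and of the ubiquitin and ADP-ribose enzymes lay on both sides of 0, with 3 of 6 above 0 in quadriceps and 4 of 6 in brown fat. Isg15 was at -0.03 ± 0.07 (SE) in quadriceps, where its mean count was only 2.77, and at 0.06 ± 0.12 (SE) in brown fat in the authors' deposited table. Usp18, encoding the protease that removes ISG15 and dampens the interferon receptor, was at 0.07 and -0.04 in the authors' deposited table. Trim25, a ubiquitin ligase gene of RIG-I signalling, was the most abundant member by mean count in both tissues, with 503 in quadriceps and 1070 in brown fat, and was at -0.12 ± 0.10 (SE) and -0.03 ± 0.12 (SE) in the authors' deposited table. Dtx3l and Parp9, whose products form a ubiquitin ligase and ADP-ribosyltransferase complex, lie next to each other in the gene order, with Parp14 beside Dtx3l. In quadriceps Parp9 was at 0.17 ± 0.12 (SE), Dtx3l at -0.02 ± 0.11 (SE) and Parp14 at 0.01 ± 0.11 (SE) in the authors' deposited table, and differences between these genes were not tested. In brown fat Parp9 was at 0.01, Dtx3l at 0.07 and the ADP-ribosyltransferase gene Parp14 at 0.10 in the authors' deposited table.

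The 14 effector genes lay on both sides of 0, with 7 of 14 above 0 in quadriceps and 10 of 14 in brown fat. Ifit1, Ifit2 and Ifit3 encode proteins that bind foreign RNA, and the last pair are neighbours in the gene order. Their log2 fold changes were 0.05, -0.035 and 0.14 in quadriceps and -0.0076, 0.10 and 0.02 in brown fat in the authors' deposited table. The oligoadenylate synthetase genes Oas1a and Oas2, whose product activates RNase L, were at 0.02 and -0.09 in quadriceps and at 0.05 and -0.06 in brown fat in the authors' deposited table. Their relative Oasl2 had the lowest value of all members in quadriceps, -0.16 ± 0.13 (SE), and was at 0.07 ± 0.13 (SE) in brown fat in the authors' deposited table. Rsad2, encoding viperin, which makes a chain-terminating nucleotide, was at -0.07 ± 0.13 (SE) in quadriceps and had the lowest value of all members in brown fat, -0.14 ± 0.13 (SE) at a mean count of 1051, in the authors' deposited table. Bst2, encoding tetherin, which holds budding virus at the cell surface, stood at the other end. It was at 0.0058 ± 0.13 (SE) in quadriceps and 0.26 ± 0.13 (SE) in brown fat, with an unadjusted p of 0.0388 for brown fat in the authors' deposited DESeq2 table (adjusted p 1.00). Plasmacytoid dendritic cells also carry Bst2, and their marker Siglech had a mean count of 6.18 in brown fat, with a log2 fold change of 0.05 in the authors' deposited table. The receptor chaperone gene Rtp4 was at 0.03 and 0.17, the XIAP-binding protein gene Xaf1 at -0.07 and 0.0011, Ifi35 at -0.06 and -0.03, and Ifi44 at 0.07 and 0.12 in quadriceps and brown fat in the authors' deposited table. Mx1 and Mx2 were at 0.03 and -0.0077 in quadriceps and at 0.03 and 0.10 in brown fat, with a highest mean count of 14.4, for Mx2 in brown fat, in the authors' deposited table. Ifit1, Ifit3, Oas1a, Mx1, Mx2, Gbp2, Gbp3 and Igtp have close relatives in the mouse genome, and the counting rule for shared reads is not given in the sources used here.

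The GTPase role held Gbp2, Gbp3, Igtp and Irgm1, while Mx1 and Mx2, which also encode GTPases, were placed with the effectors. In this grouping the GTPase role had the highest median of the roles in quadriceps and the next to highest in brown fat. Igtp, also called Irgm3, encodes an immunity-related GTPase of vacuole defence. Its log2 fold change was 0.28 ± 0.13 (SE) in quadriceps at a mean count of 87.3 and 0.27 ± 0.12 (SE) in brown fat at a mean count of 240 in the authors' deposited table. The unadjusted p was 0.0345 in quadriceps and 0.0263 in brown fat in the authors' deposited DESeq2 tables (adjusted p 1.00 in each). Igtp was the one member with an unadjusted p under 0.05 in both tissues. The share of all genes under it in both was not computed, so this is a description only. Irgm1, which encodes a regulator of the same GTPase family, was at 0.13 ± 0.11 (SE) in quadriceps and 0.19 ± 0.10 (SE) in brown fat in the authors' deposited table. The guanylate-binding protein gene Gbp3 was at 0.25 ± 0.13 (SE) in quadriceps and 0.18 ± 0.13 (SE) in brown fat, while Gbp2 was at -0.05 ± 0.13 (SE) and 0.21 ± 0.13 (SE) in the authors' deposited table. The median of the 4 genes was 0.19 in quadriceps and 0.20 in brown fat.

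The immunoproteasome and transporter genes were above 0 in both tissues, each within 2 SE. Psmb8, Psmb9 and Psmb10 encode the inducible catalytic subunits that replace the products of Psmb5, Psmb6 and Psmb7, and Tap1 encodes one chain of the transporter that moves peptides into the endoplasmic reticulum. In quadriceps Psmb8 was at 0.11, Psmb9 at 0.03, Psmb10 at 0.16 and Tap1 at 0.14, with SEs of 0.11 to 0.13, in the authors' deposited table. In brown fat Psmb8 was at 0.22 ± 0.13 (SE), Psmb9 at 0.23 ± 0.13 (SE), Psmb10 at 0.10 ± 0.12 (SE) and Tap1 at 0.21 ± 0.13 (SE) in the authors' deposited table. The smallest unadjusted p of the 4 was 0.0657, for Psmb9 in brown fat in the authors' deposited DESeq2 table (adjusted p 1.00). The constitutive subunit genes Psmb5, Psmb6 and Psmb7 were at 0.0084, -0.05 and -0.05 in quadriceps and at 0.06, 0.08 and 0.02 in brown fat in the authors' deposited table. Per kb of transcript, Psmb8 reached 8.65% of the level of Psmb5 in quadriceps and 44.0% in brown fat. Psmb9 reached 0.497% of Psmb6 in quadriceps and 4.85% in brown fat, and Psmb10 reached 1.21% of Psmb7 in quadriceps and 7.46% in brown fat. These shares rest on the longest annotated transcript of each gene.

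Psmb9, Tap1 and Psmb8 follow each other in the gene order. Psmb9 and Tap1 are read in opposite directions from start sites 225 bases apart, so their windows overlap over 275 bases. The stretch between the start sites is shown because the pair share it, and it is written along Tap1, with the Psmb9 start beyond its left end; it held no match to either core.
Tap1 and Psmb9, chr17:34187331-34187555, plus strand: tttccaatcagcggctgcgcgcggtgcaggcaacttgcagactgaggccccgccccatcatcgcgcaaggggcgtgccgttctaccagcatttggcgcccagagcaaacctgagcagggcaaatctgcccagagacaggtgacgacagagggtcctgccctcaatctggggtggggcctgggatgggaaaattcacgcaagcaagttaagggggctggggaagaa
The pair had nearly equal values in brown fat, as given above, while in quadriceps their mean counts were lower, at 41.1 for Tap1 and 13.2 for Psmb9 in the authors' deposited table.

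The tissues were then compared gene by gene, by the difference of the log2 fold changes (quadriceps less brown fat) over the root of the summed squared SEs. At an adjusted p under 0.05, 0 of 35 members differed, against 0% of 16844 genes, by this two-sided normal test over all genes. At an unadjusted p under 0.05, 1 member differed, against 1.16% of all genes. That member was Irf7, with a difference of -0.35 ± 0.18 (SE), an unadjusted p of 0.0457 and an adjusted p of 1.00. The difference was below 0 for 25 members and above 0 for 10, with a median of -0.07 against -1.07e-04 over all genes. The members were chosen with the lean in brown fat known, so counts by sign in this comparison are not independent of it. The 95% interval for a single member is wide, since the SE of its difference was between 0.11 and 0.19, so a p above the threshold does not show that the tissues were alike. Both fold changes behave as shrunken estimates, each within its own tissue, so these p-values and intervals are approximate. The 1.16% of all genes under 0.05 is fewer than that threshold would give without any difference. Members of low mean count in quadriceps, such as Isg15 (2.77), are drawn closer to 0 there, which can affect the counts by sign. In all, 17 of 35 members were above 0 in both tissues, against 29.1% of all genes. Below 0 in both were 4 members, while 11 were above 0 in brown fat alone and 3 in quadriceps alone. Across the 35 members the log2 fold changes of the tissues had a Pearson's r of 0.37 and a Spearman's rho of 0.34, as a description. Whether one mouse gave both tissues is not given in the labels.

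**Figure D3:**
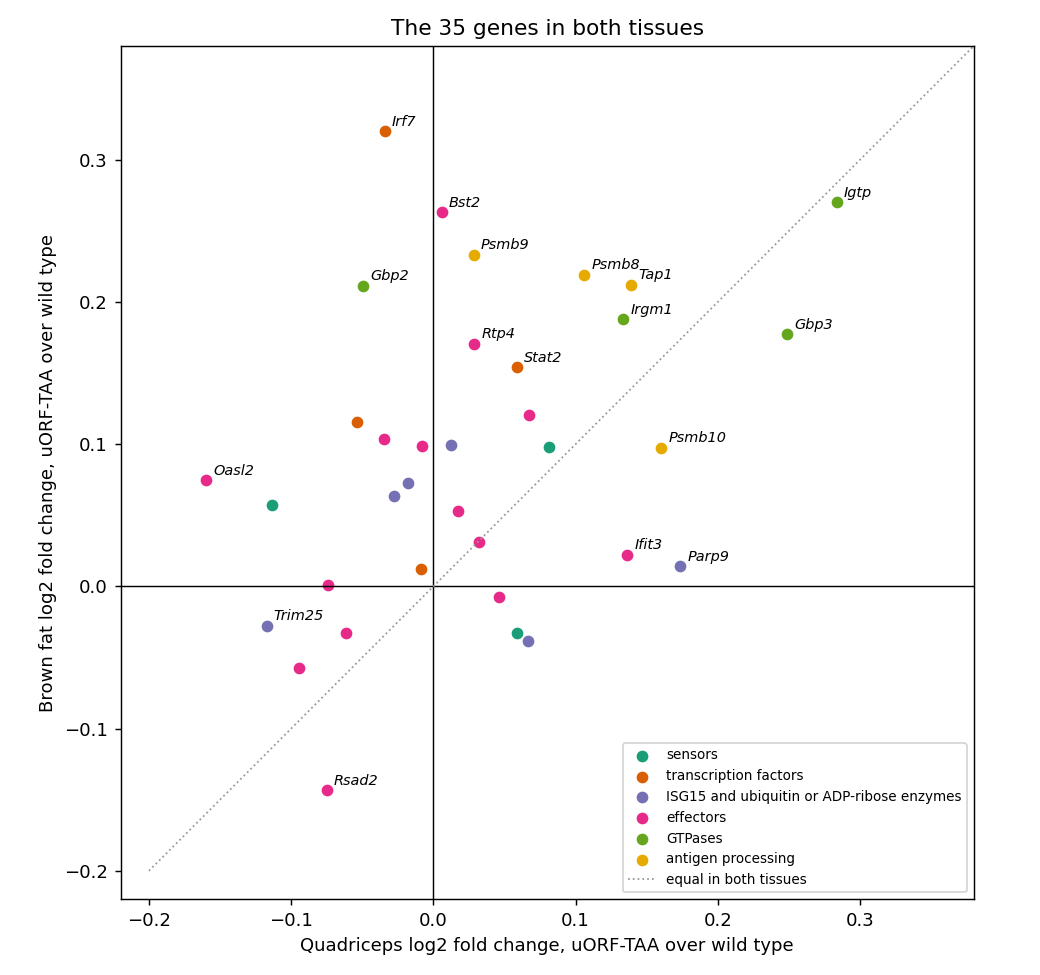
Log2 fold change (uORF-TAA over wild type) of each of the 35 genes in quadriceps, on the x axis, and brown fat, on the y axis, coloured by role, with the line of equal values dotted. Igtp (0.28 and 0.27) lies near the dotted line, and Irf7 (-0.03 and 0.32) lies farthest above it.

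Other genes of the pathway, from lists that do not overlap the 35, were read in the same way, and none passed an adjusted p of 0.05 in either tissue. These lists too were chosen with earlier results of these data known, so their counts are not independent of the lean in brown fat. Of the MHC class I pathway 10 of 13 genes were above 0 in quadriceps, against 51.7% of all genes, and 0 had an unadjusted p under 0.05. In brown fat 11 of 13 were above 0, against 51.2% of all genes. There 5 were higher at an unadjusted p under 0.05, against 0.918% of all genes, and 0 were lower, against 1.15%. In quadriceps the class I heavy chain genes H2-Q4, H2-D1 and H2-K1 were at 0.16, 0.14 and 0.16 and the light chain gene B2m at 0.06 in the authors' deposited table. In brown fat H2-Q4 was at 0.36 ± 0.12 (SE), H2-D1 at 0.29 ± 0.11 (SE), H2-K1 at 0.29 ± 0.12 (SE) and B2m at 0.26 ± 0.11 (SE) in the authors' deposited table. The fifth was Tap2, the partner chain of TAP1, at 0.23. The H2 genes resemble each other closely and may share reads. A further 49 interferon-stimulated genes had 25 above 0 in quadriceps, with a median of 0.0018, and 38 above 0 in brown fat, with a median of 0.06. In brown fat 4 of them were higher at an unadjusted p under 0.05, against 0.918% of all genes, and 1 was lower, against 1.15%. The highest was Ifi27l2a at 0.37 ± 0.13 (SE), and Cxcl9, a chemokine gene induced by interferon gamma, stood at 0.30 ± 0.13 (SE) there in the authors' deposited table. Tgtp2, an immunity-related GTPase gene, was at 0.29 ± 0.13 (SE) in brown fat in the authors' deposited table. The other higher gene was Lgals3bp, at 0.28, and the lower one was Ifitm1, at -0.24. In quadriceps Ifi203 was at -0.29 ± 0.12 (SE), the 1 gene of this list with an unadjusted p under 0.05 there, in the authors' deposited table. Of all genes in quadriceps, 0.942% were higher and 1.06% lower at that threshold.

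The constitutive proteasome and activator genes had 3 of 10 above 0 in quadriceps and 8 of 10 in brown fat, with medians of -0.05 and 0.05. At an unadjusted p under 0.05, 0 of them were called in quadriceps, where 0.942% of all genes were higher and 1.06% lower. In brown fat 1 was higher, Psme1, against 0.918% of all genes, and 0 were lower, against 1.15%. Psme1, which encodes a chain of the interferon-inducible proteasome activator PA28, was at 0.02 ± 0.11 (SE) in quadriceps and 0.21 ± 0.10 (SE) in brown fat in the authors' deposited table. Psme2, Psme3 and Psmb1 were at 0.12, -0.14 and -0.10 in quadriceps and at 0.08, 0.06 and -0.02 in brown fat. Receptors, kinases and transmitting factors had 9 of 17 above 0 in quadriceps and 10 of 17 in brown fat. Below an unadjusted p of 0.05, 1 was higher (Irf5) and 1 lower (Ifnar2) in quadriceps, against the same shares of all genes as above. In brown fat 0 were higher and 1 was lower (Ifngr1), again against the shares given above. The receptor chain gene Ifnar2 was at -0.26 ± 0.11 (SE) in quadriceps and 0.12 ± 0.09 (SE) in brown fat, and Ifngr1, the ligand-binding chain for interferon gamma, was at -0.11 ± 0.12 (SE) and -0.24 ± 0.11 (SE) in the authors' deposited table. Irf5 was at 0.28 ± 0.13 (SE) in quadriceps and 0.08 ± 0.13 (SE) in brown fat in the authors' deposited table. Irf2 was at -0.13 ± 0.12 (SE) in quadriceps and -0.16 ± 0.10 (SE) in brown fat. Upstream sensors and adaptors had 10 of 12 above 0 in quadriceps and 8 of 12 in brown fat. Of them 0 had an unadjusted p under 0.05 in either tissue, against the same shares of all genes. In quadriceps Traf3 was at 0.16, Mb21d1 at 0.12, Ticam1 at 0.07 and Ikbke at 0.06. In brown fat they were at 0.07, 0.13, 0.12 and -0.19. Of the 9 interferon genes listed, Ifng had a mean count of 0.489 in quadriceps and 0.675 in brown fat and Ifna2 a mean of 0.117 in quadriceps in the authors' deposited table. For the other listed interferon genes, and for Ifna2 in brown fat, no value was found among those read here, so their level cannot be given.

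Leukocyte markers were read beside these values, since leukocytes carry many of the same genes. T and NK cell markers had 10 of 12 above 0 in quadriceps with a median of 0.01, at a summed mean count of only 10.9. In brown fat 9 of the 10 with a p-value were above 0 with a median of 0.06, at a summed mean count of 130. Dendritic cell and MHC class II markers had 7 of 8 above 0 in quadriceps and 6 of 8 in brown fat, with medians of 0.05 and 0.06. Macrophage markers had medians below 0, with 4 of 10 above 0 in quadriceps (median -0.02) and 3 of 10 in brown fat (median -0.03). The general leukocyte gene Ptprc was at -0.07 ± 0.13 (SE) in quadriceps and 0.05 ± 0.12 (SE) in brown fat in the authors' deposited table. B cell markers had 2 of 4 above 0 in quadriceps and 1 of 4 in brown fat. Neutrophil markers had 2 of 2 above 0 in quadriceps and 0 of 3 in brown fat. Endothelial markers had 2 of 6 above 0 in quadriceps and 4 of 6 in brown fat, and fibroblast markers 3 of 4 and 3 of 5, with medians of 0.04 and 0.08. Brown adipocyte markers had 7 of 8 above 0 in quadriceps and 8 of 8 in brown fat, with medians of 0.06 and 0.08, and muscle fibre markers 3 of 8 and 0 of 8. No marker with a p-value had an unadjusted p under 0.05. Retnlg and Lum in quadriceps and Gzma and Prf1 in brown fat have a fold change but no p-value and are not in these counts. Of these, the fibroblast marker Lum was at 0.27 ± 0.13 (SE) in quadriceps in the authors' deposited table, with a 95% interval of 0.02 to 0.52. Since the authors' test gave Lum no p-value there, this interval is not read as a difference. Why the p-value is missing is not given. The part of T, NK and dendritic cells in the values of the 35 genes was not tested.

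**Figure D4:**
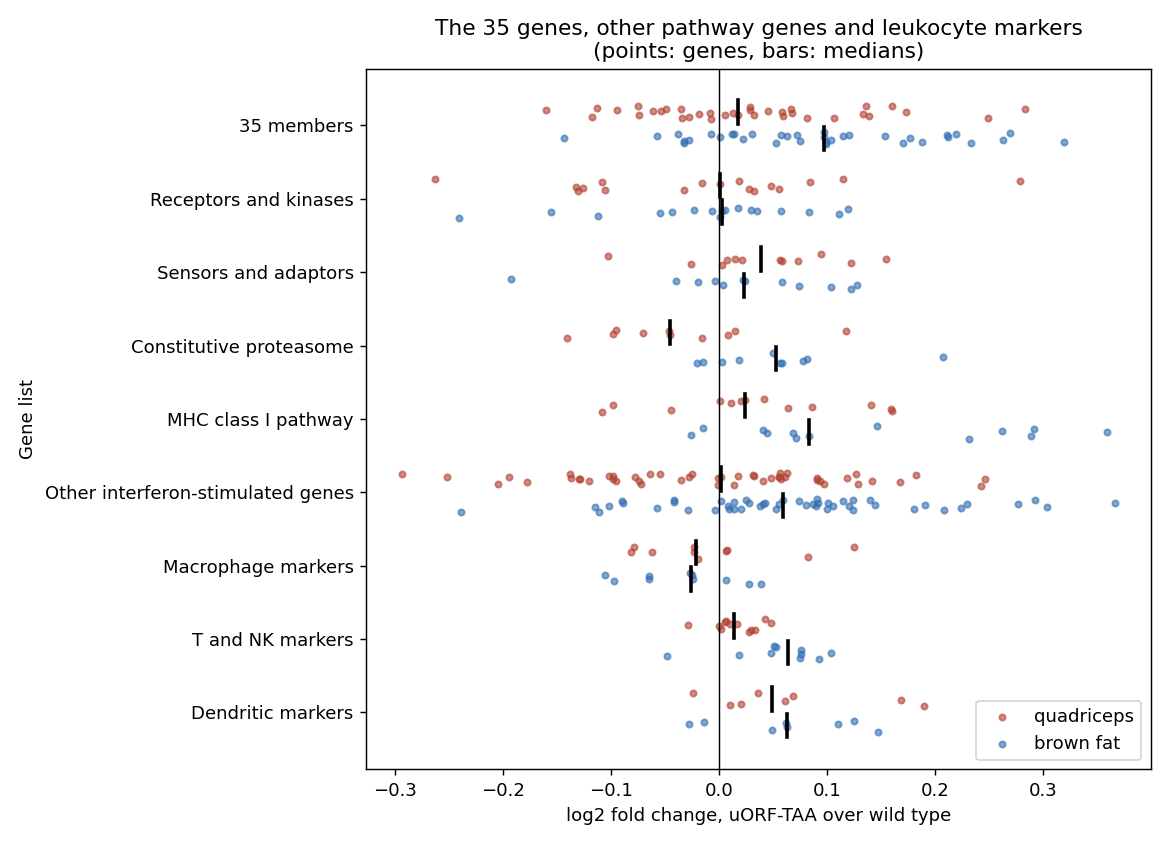
Log2 fold change (uORF-TAA over wild type) of single genes, as points, with the list median as a black bar, in quadriceps (red, upper row of each list) and brown fat (blue, lower row). The brown fat median is 0.10 for the 35 genes, 0.08 for the MHC class I pathway and 0.06 for other interferon-stimulated genes, against 0.06 for T and NK cell and for dendritic cell markers and -0.03 for macrophage markers.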

How the data were processed

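Stranded mRNA libraries of quadriceps and brown fat were read from one end, per the labels' protocols. The submitters' processing notes name STAR 2.5.1b, DESeq2 1.10.1 and the mouse build mm9, without their roles. No source used here gives the gene annotation or the read counter. Each tissue has 1 table of the authors' comparison. Per the file headers, the deposited mean normalized count is treated as a signal over 8 libraries. The deposited log2 fold change has a deposited SE, the deposited Wald statistic is treated as a score, and the deposited p-value is two-sided. The statistic and adjusted p were recomputed and matched the deposited columns. For means under 1 the median SE was only 0.0223 (quadriceps) and 0.0181 (brown fat), the pattern of shrunken estimates.

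Computed here (Python 3.11.15, pandas 2.3.3, scipy 1.17.1) were the sign change of brown fat, Benjamini-Hochberg adjustments, 95% intervals, the difference between tissues, levels per kb (GENCODE M21 lengths, found for 35 of 35 members) and motif searches. Depth was estimated from genes whose mean equals 1 read in 1 library. Named genes were all members and, per other list, up to 4 of smallest p, with Psmb5, Psmb6 and Psmb7. Emr1 was used as the older symbol of Adgre1. Members and lists were chosen with earlier results of these data known. Tap2, Lgals3bp, Ifitm1, Siglech, Ptprc and the markers without a p-value were chosen after they were seen. RefSeq coordinates are of GRCm38.p6 and were not combined with mm9. No column of per-library values was used.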

Additional observations from a re-analysis of the deposited data

How the results depend on the processing

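No paired analysis was possible because the tables hold no values per library, so neither a fit with the replicate number as a block nor one without a replicate could be made. The number of members called stayed at 0 of those tested in quadriceps, in brown fat and for the difference between tissues, under each alternative run (a mean of at least 50, adjustment over all genes, a threshold of 0.10 and, for the difference, the brown fat sign as deposited). The lean of quadriceps members did not survive the mean filter. Among the 15 members with a mean of at least 50 there, 46.7% were above 0 and the median log2 fold change was -0.0087, against 57.1% and 0.02 over all 35, and the filter keeps only 15 members by construction. In brown fat, the percent above 0 was 80%, and 76.7% to 77.8% with the mean filter, with a running median over mean count taken off, or without 8 members that have close paralogs. With the brown fat sign as deposited, 20% were above 0 and the median was -0.10, by construction. Taking off the running median turned the sign of 1 member per tissue, Bst2 in quadriceps (-0.0079) and Xaf1 in brown fat (-6.92e-05), both near 0 before. The scaling of levels between the tissues by a median ratio was chosen after seeing the data. Low counts limit members such as Isg15 and Oas1a in quadriceps.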
